A study of Homo sapiens with 8 samples.

Results

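The SOX transcription factors described here are 10 genes, SOX2, SOX4, SOX5, SOX6, SOX8, SOX9, SOX10, SOX11, SOX12 and SOX13, taken by symbol from an RNA-seq table of 47591 genes in SH-SY5Y, a human neuroblastoma (NB) cell line of sympathetic neuroblast character. Each of them had 1 row in the table. The study asked how the transcriptome of these cells differs when PRPF40B, a splicing factor, is silenced. Polyadenylated RNA of 3 lines was sequenced. For G2 (3 libraries) the CRISPR/Cas9 guide was directed at PRPF40B. SCR (3 libraries) received the same machinery with a scrambled control guide, and WT (2 libraries) was not modified. The edited cells were selected with puromycin and grown from individual colonies by limiting dilution, and G2 and SCR were kept in puromycin. No second guide against PRPF40B is among the libraries, so the edit and the history of the G2 colony cannot be told apart. In bulk RNA, more cells of a type and more RNA per cell cannot be told apart either.

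SOX proteins bind DNA through an HMG box that bends the minor groove at sites resembling AACAAT and the related ACAAAG. The family is divided into groups by the similarity of that box. The SoxB1 protein SOX2 maintains neural progenitors and pluripotent cells. The SoxC proteins SOX4, SOX11 and SOX12 activate genes of young neurons and are abundant in the developing sympathetic nervous system. The SoxD proteins SOX5, SOX6 and SOX13 lack a transactivation domain of their own and modulate other SOX factors. The SoxE proteins SOX8, SOX9 and SOX10 act in the neural crest, where SOX10 specifies glia and melanocytes and SOX9 specifies cartilage and mesenchymal derivatives.

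The values are counts normalized by the authors with DESeq2 and not divided by gene length. The counts before normalization could be recovered, and summed to 59804395 to 81080747 per library. Of the small recovered counts, 71.3% to 75.6% per library were multiples of 3. A fragment was therefore taken as about 3 recovered counts, and these totals exceed the number of fragments. PRPF40B was at 840.2, 840.9 and 917.7 normalized counts in the G2 libraries, against 1669 to 1686 in SCR and 1668 and 1972 in WT. The log2 difference was -0.95 between G2 and SCR (limma, adjusted p = 7.40e-07) and -1.07 between G2 and WT (7.89e-07). Its transcript was thus lower in every G2 library but was still present. Genes annotated as ribosomal RNA took 4.75% and 4.96% of all normalized counts in WT and 0.384% to 0.587% in the other libraries, and their part in the comparisons with WT was not tested. A gene is said to be at the floor in a line when no library of it held more than 9 recovered counts, about 3 fragments, and folds against such a line are given as lower bounds. These bounds divide the mean of the higher line by the floor of the other, so they cover counting error in the lower line only. The labels call the libraries biological replicates of 1 line each, so p-values measure the spread between libraries of these 3 lines.

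**Figure D1:**
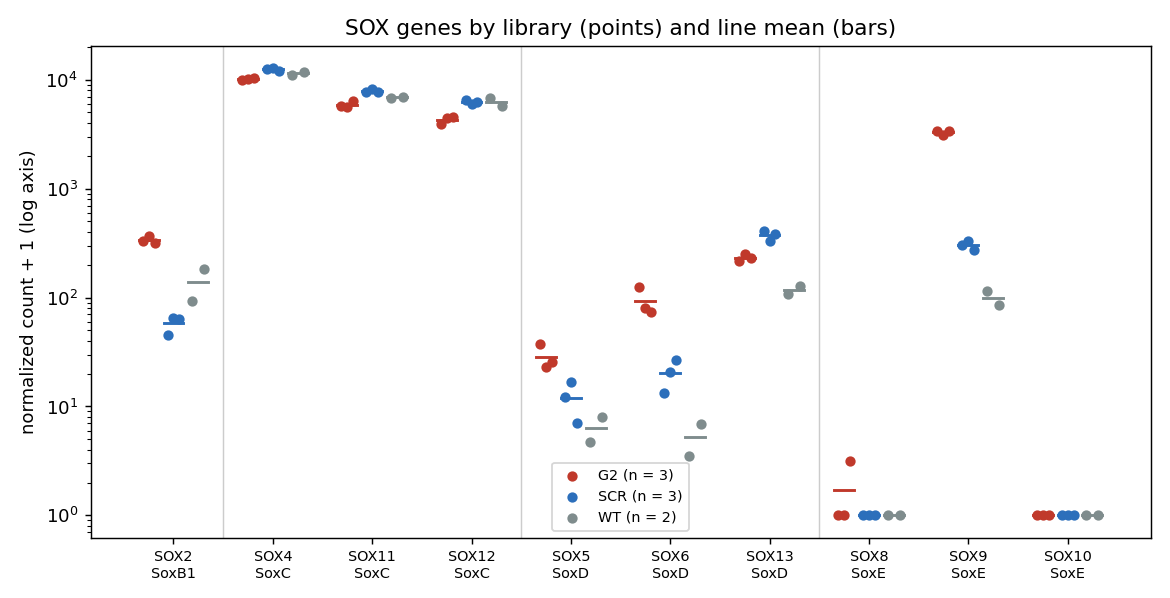
Normalized count + 1 of the 10 SOX genes in each library (log axis). Points are libraries of G2 (3), SCR (3) and WT (2), and bars are line means. SOX9 stands at 3110 to 3413 in G2 and at 84.4 to 330.3 in the 5 control libraries, while SOX4, SOX11 and SOX12 are at 3922 or more in every library and SOX8 and SOX10 are at or near 0.

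SOX9, SOX2, SOX6 and SOX5 were higher in G2 than in both control lines, SOX13 lay between SCR and WT, and the 3 SoxC genes were slightly lower in G2. Of the 10 genes, 8 passed the filter of a mean of at least 10 normalized counts and were tested. SOX8 and SOX10 did not. A gene was called when its fold change reached 1.5 and its unadjusted limma p did not exceed 0.05. By this rule 5 of 8 were called in G2/SCR, 4 higher and 1 lower, where 26.9% of all 18947 genes tested were called. In G2/WT 5 of 8 were called, all higher, against 29.9% of all genes. In SCR/WT 4 of 8 were called, 3 higher and 1 lower, against 16.3%. With an adjusted p of at most 0.05 and no fold threshold the counts were 7 of 8 in G2/SCR (49.1% of all genes), 8 of 8 in G2/WT (52.6%) and 5 of 8 in SCR/WT (35.4%). SOX2, SOX5, SOX6 and SOX9 were called higher in both G2 comparisons, as were 11.3% of all genes. For 7 of 8, all but SOX13, no G2 library fell within the range of the 5 controls, which held for 42.5% of all genes.

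SOX9, at chr17:72121020-72126420 (hg38, plus strand, GSHG0018526 in the FAST DB annotation), had the largest fold change of the tested SOX genes in both G2 comparisons. It was at 3384, 3110 and 3413 normalized counts in the G2 libraries, 300.04, 330.3 and 271.3 in SCR and 113.0 and 84.4 in WT. No libraries of different lines overlapped, and the levels fell in the order G2, SCR, WT. The mean was 3302 ± 167 (SD, n = 3) in G2, 10.99-fold above SCR and 33.5-fold above WT. The log2 differences were 3.46 ± 0.12 (SE) against SCR (limma, adjusted p = 3.43e-10) and 5.06 ± 0.13 against WT (4.41e-11). SOX9 also differed between the control lines, being 3.05-fold higher in SCR than in WT (log2 fold change 1.61, limma adjusted p = 4.13e-06). SOX9 therefore was not specific to G2 under the rule that both G2 comparisons call a gene with the same sign while SCR/WT does not, which 13.8% of all genes met. An exact permutation test of the 3 G2 against the 5 control libraries (two-sided, 56 groupings) gave p = 0.0179, the smallest it allows. That p requires all G2 libraries to lie outside the range of the 5 controls, which held for 42.5% of all genes. The test also treats the libraries as exchangeable although they come from 3 lines, so it does not measure an effect of the edit.

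The other SoxE genes were not measurable. SOX10 was at 0 in all 8 libraries and SOX8 in all but G2 replicate 3, where it was at 2.15 normalized counts. Both were at the floor in every line, so no fold is given. The noncoding gene SOX9-AS1, which overlaps SOX9 in the annotation, was at 43.3, 25.2 and 47.3 normalized counts in G2 and at the floor in SCR and WT, at least 4.74-fold and 3.84-fold higher in G2. Since the strand setting of the counting is not given in the sources used here, reads of SOX9 and SOX9-AS1 cannot be told apart where they overlap. The same holds for other overlapping entries, such as SOX2 with SOX2-OT and SOX6 with C11orf58.

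SOX2 is a gene without introns at chr3:181711925-181714436 (plus strand), inside the noncoding gene SOX2-OT. It had 331.2, 364.6 and 314.8 normalized counts in G2, 43.9, 63.8 and 62.7 in SCR and 91.9 and 181.7 in WT. All G2 libraries were above all control libraries, and both WT libraries were above all SCR libraries, so the order was G2, WT, SCR, unlike that of SOX9. SOX2 was 5.93-fold higher in G2 than in SCR (log2 fold change 2.56 ± 0.24, limma adjusted p = 2.35e-06) and 2.46-fold higher than in WT (1.37 ± 0.26, adjusted p = 0.00091). WT exceeded SCR 2.41-fold (log2 fold change of SCR/WT -1.19, limma adjusted p = 0.00433). The WT libraries stood apart from each other, and the log2 fold change of SOX2 in G2/WT was 0.88 without WT replicate 1 and 1.86 without WT replicate 2, called in both cases. SOX2-OT held 10.7 to 25.2 normalized counts in G2 and was at the floor in SCR and WT, at least 2.01-fold and 1.63-fold higher in G2.

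The 250 bases before the RefSeq start of SOX2 (GRCh38.p14, chr3:181711675-181711924, plus strand) are shown because SOX2 is itself a SOX gene that moved and because its window holds a SOX-type sequence. Capitals mark exact matches on either strand to the SOX-type sequences AACAAT and also ACAAAG, the box CCAAT bound by NF-Y, the GC box GGGCGG, the TATA box TATAAA, the AP-1 site TGACTCA and the E-box CACGTG, with no overlaps between matches in the windows shown.
SOX2: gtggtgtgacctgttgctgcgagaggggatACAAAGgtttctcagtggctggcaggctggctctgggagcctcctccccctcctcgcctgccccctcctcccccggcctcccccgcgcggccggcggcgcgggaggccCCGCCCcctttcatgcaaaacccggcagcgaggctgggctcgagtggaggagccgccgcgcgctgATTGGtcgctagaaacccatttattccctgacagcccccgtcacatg
The window holds ACAAAG, found in 13.7% of all 35114 promoter windows of this length, an inverted CCAAT (32.01%) and an inverted GGGCGG (42.6%). SOX5, the gene with the lowest level in G2 of those called, has an inverted AACAAT, a sequence in 8.98% of windows, in the 250 bases before its start (chr12:24562492-24562741, minus strand), as well as GGGCGG.
SOX5: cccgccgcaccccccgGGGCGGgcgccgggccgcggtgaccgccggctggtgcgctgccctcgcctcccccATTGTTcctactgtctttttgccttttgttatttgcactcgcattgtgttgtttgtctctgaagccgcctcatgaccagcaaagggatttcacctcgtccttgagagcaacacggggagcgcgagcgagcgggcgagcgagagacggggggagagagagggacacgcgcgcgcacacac
Of the other motifs searched, TATAAA was in 10.7% of all windows, TGACTCA in 4.20% and CACGTG in 6.35%, and none of them was in the windows of SOX2 or SOX5. Such matches describe letters and not bound sites. Of the 10 genes, 6 had entries in the RefSeq promoter table, with 10 windows in all, 5 of them for SOX6. SOX8, SOX9, SOX10 and SOX11 had none. The window of SOX13, which was called too, held neither AACAAT nor ACAAAG. Those of SOX6 differed, some holding AACAAT and others neither sequence. Because the SOX2 window was picked for holding such a sequence, its match is no result about the called genes.

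The SoxD genes did not move as a group. SOX6, at chr11:15966449-16738643 (minus strand), was at 125.1, 78.8 and 71.996 normalized counts in G2, 12.2, 19.7 and 25.7 in SCR and 2.48 and 5.96 in WT. The lines did not overlap, and WT was at the floor. SOX6 was 4.79-fold higher in G2 than in SCR (log2 fold change 2.22 ± 0.42, limma adjusted p = 0.000918) and exceeded the floor of WT at least 9.15-fold (adjusted p = 1.38e-05). SCR was at least 1.91-fold above WT, and SOX6 was called there too (limma adjusted p = 0.00659).

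SOX5, at chr12:23529504-24562491 (minus strand), is the closest relative of SOX6 and acts with it in chondrocytes. It was at 36.7, 21.9 and 24.7 normalized counts in G2, 11.2, 15.95 and 6.05 in SCR and 3.73 and 6.95 in WT, where it was at the floor. All G2 libraries were above all control libraries, while SCR and WT overlapped. The mean was 2.51-fold higher in G2 than in SCR (log2 fold change 1.31 ± 0.53) but the limma adjusted p was 0.0577, and the call was lost without G2 replicate 1 (log2 fold change 1.10), G2 replicate 3 (1.37) or SCR replicate 3 (0.96). Against WT it was at least 2.76-fold higher (limma adjusted p = 0.0077). SOX5 alone of the 8 tested genes was thus specific to G2 by the rule above, and it met that rule in none of those 3 reduced sets. The exact permutation test of G2 against all controls gave p = 0.0357 for SOX5 and p = 0.0179 for SOX2 and SOX6 (two-sided), with the limits given for SOX9.

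SOX13, at chr1:204073099-204127786 (plus strand), went its own way among the SoxD genes. It had 213.6, 250.8 and 231.0 normalized counts in G2, 410.3, 326.6 and 378.6 in SCR and 106.8 and 127.1 in WT. The 3 lines were fully separated, with SCR highest and WT lowest. SCR exceeded G2 1.604-fold (log2 fold change of G2/SCR -0.68 ± 0.13, limma adjusted p = 0.00107) and WT 3.18-fold (1.66 ± 0.15, adjusted p = 8.03e-06), and G2 exceeded WT 1.98-fold (0.98 ± 0.15, adjusted p = 0.000139). Because G2 lay between the control lines, the exact permutation test of G2 against the 5 controls gave p = 1.

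**Figure D2:**
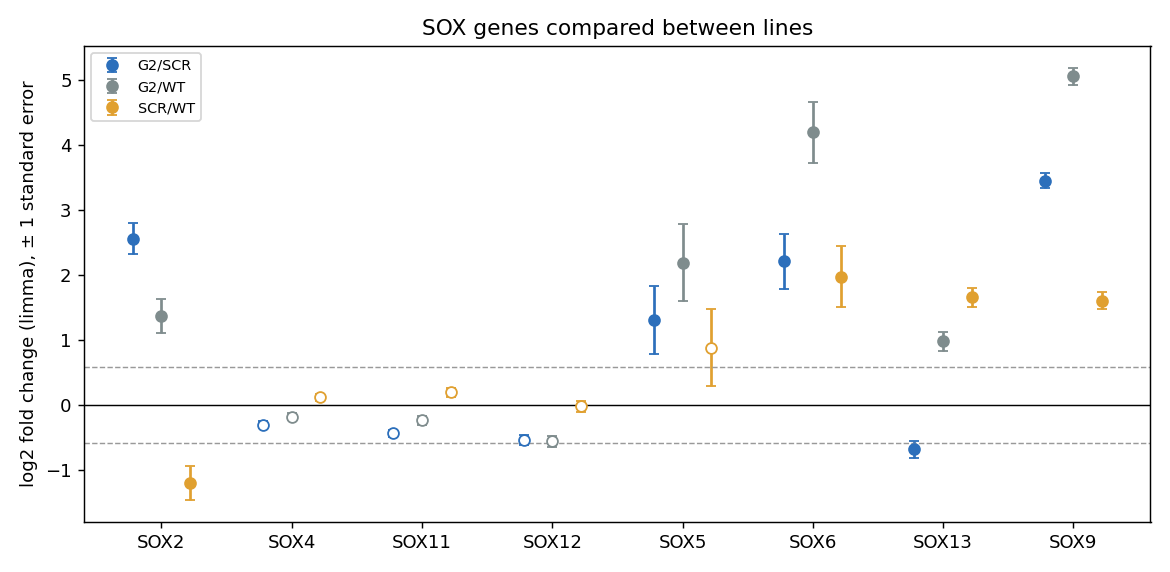
Log2 fold change of the 8 tested SOX genes in G2/SCR, G2/WT and SCR/WT (limma, bars are 1 standard error). Filled points are called genes, and dashed lines mark the fold threshold of 1.5. SOX9 reaches 3.46 and 5.06 in the G2 comparisons and 1.61 in SCR/WT, SOX2 and SOX13 change sign between comparisons, and SOX4, SOX11 and SOX12 stay inside the dashed lines.

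SOX2, SOX6, SOX9 and SOX13 were called in all 3 comparisons, as were 4.28% of all genes, so the control lines SCR and WT differed in 4 of the 8 tested SOX genes. For SOX9 and SOX6 the SCR level lay between those of WT and G2, whereas for SOX2 the SCR level was the lowest and for SOX13 the highest of the 3 lines.

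The SoxC genes had the highest normalized counts of the 10 genes in every library, a scale that does not correct for length, and were lower in G2 by less than the fold threshold. SOX4, at chr6:21593751-21598619 (plus strand), was at 9856, 10247 and 10407 normalized counts in G2, 12597, 12729 and 12094 in SCR and 11138 and 11778 in WT. SOX11, at chr2:5692384-5701385 (plus strand), was at 5696, 5593 and 6309 in G2, 7752, 8211 and 7736 in SCR and 6784 and 6971 in WT. SOX12, at chr20:325552-330224 (plus strand), was at 3922, 4415 and 4545 in G2, 6531, 5933 and 6181 in SCR and 6818 and 5770 in WT. For all 3 genes, each G2 library was below each control library, and the exact permutation test gave p = 0.0179 for each (two-sided, the smallest possible). The limits of this test given for SOX9 hold here too, and 42.5% of all genes had every G2 library outside the control range. SOX12 was 1.45-fold lower in G2 than in SCR (log2 fold change -0.54, limma adjusted p = 0.000105) and 1.47-fold lower than in WT (-0.55, adjusted p = 0.000193). SOX11 was 1.35-fold lower than in SCR (-0.43, adjusted p = 6.98e-05) and 1.17-fold lower than in WT (-0.23, adjusted p = 0.0106), and SOX4 1.23-fold (-0.29, adjusted p = 0.000396) and 1.13-fold lower (-0.17, adjusted p = 0.0218). None of them was called at the 1.5-fold threshold, although SOX12 was called in G2/WT without G2 replicate 3 (log2 fold change -0.59) and without WT replicate 2 (-0.67).

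Between the control lines SOX12 differed by -0.01 (log2 SCR/WT, limma adjusted p = 0.917), SOX4 by 0.12 (adjusted p = 0.111) and SOX11 by 0.20 (adjusted p = 0.0334). These small differences depend on the scaling of the libraries. When all libraries were scaled to the same total, the median log2 fold change of all genes moved to -0.10 in G2/SCR, 0.19 in G2/WT and 0.29 in SCR/WT. Under that scaling SOX4 stood at 0.01 in G2/WT, no longer below 0, and SOX12 at -0.63 in G2/SCR, where it was called.

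**Figure D3:**
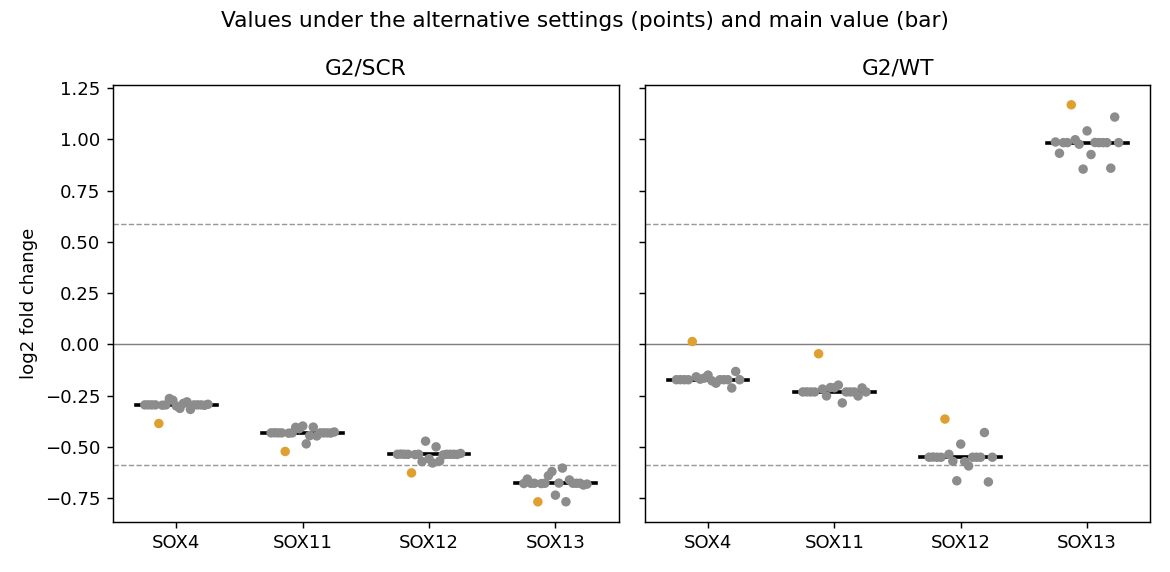
Log2 fold change of SOX4, SOX11, SOX12 and SOX13 in G2/SCR and G2/WT under the main settings (black bar) and under each alternative (grey points). Orange points are all libraries scaled to the same total, and dashed lines are the 1.5-fold threshold. SOX12 lies near the threshold (-0.54 and -0.55), and SOX4 crosses 0 in G2/WT only with the orange point, at 0.01.

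SOX4 and SOX12 have promoter entries, and are shown as the pair of SoxC genes with such entries whose levels were lower in every G2 library. SOX4 (chr6:21593501-21593750, plus strand) holds CCAAT 4 times, 1 of them on the plus strand, and no GGGCGG. SOX12 (chr20:325302-325551, plus strand) holds 1 inverted CCAAT and GGGCGG 3 times. Neither holds AACAAT or ACAAAG. Capitals are as above.
SOX4: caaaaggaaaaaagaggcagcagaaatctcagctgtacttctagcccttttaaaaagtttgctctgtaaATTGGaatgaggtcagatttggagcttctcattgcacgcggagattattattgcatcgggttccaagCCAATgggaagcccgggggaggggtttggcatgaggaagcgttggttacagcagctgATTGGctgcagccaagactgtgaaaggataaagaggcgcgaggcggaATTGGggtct
SOX12: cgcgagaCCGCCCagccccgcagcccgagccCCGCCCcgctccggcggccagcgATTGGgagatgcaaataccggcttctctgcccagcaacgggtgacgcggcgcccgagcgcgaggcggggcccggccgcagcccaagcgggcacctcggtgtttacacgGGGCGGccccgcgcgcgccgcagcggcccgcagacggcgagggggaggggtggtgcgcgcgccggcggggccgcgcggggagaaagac
The windows also differ in base composition, with a GC content of 48.8% for SOX4 and 79.2% for SOX12 against a median of 58% over all windows.

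Levels of different genes can be compared only per length, so each normalized count was divided by the gene's merged exon length in kb (GENCODE 44). On that scale the 10 genes summed to 4672 ± 159 in G2, 4920 ± 95.8 in SCR and 4560 ± 28.4 in WT (SD). SOX4 ranked first and SOX12 second in all 3 lines. In G2 SOX9 came next, at 840.0 ± 42.5 per kb, with a range that overlapped that of SOX12 (918.9 ± 70.4) and lay above that of SOX11 (651.6 ± 43.0). In SCR SOX9 ranked below the 3 SoxC genes, at 76.5 per kb, and above SOX13 (50.1) and SOX2 (22.6), and in WT it was at 25.1, below the SoxC genes and SOX2 (54.5) and above SOX13 (15.8). SOX5 and SOX6 overlapped in SCR and were the lowest of the genes above 0 there and in WT. The SoxC share of the sum was 78.3% ± 0.95 in G2, 96.9% ± 0.068 in SCR and 97.9% ± 0.50 in WT. The SOX9 share was 17.99%, 1.55% and 0.55%, and that of SOX2 2.88%, 0.461% and 1.20%. The line means of the summed level thus lay between 4560 and 4920, while the SOX9 share in G2 came near that of SOX12 (19.7%).

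**Figure D4:**
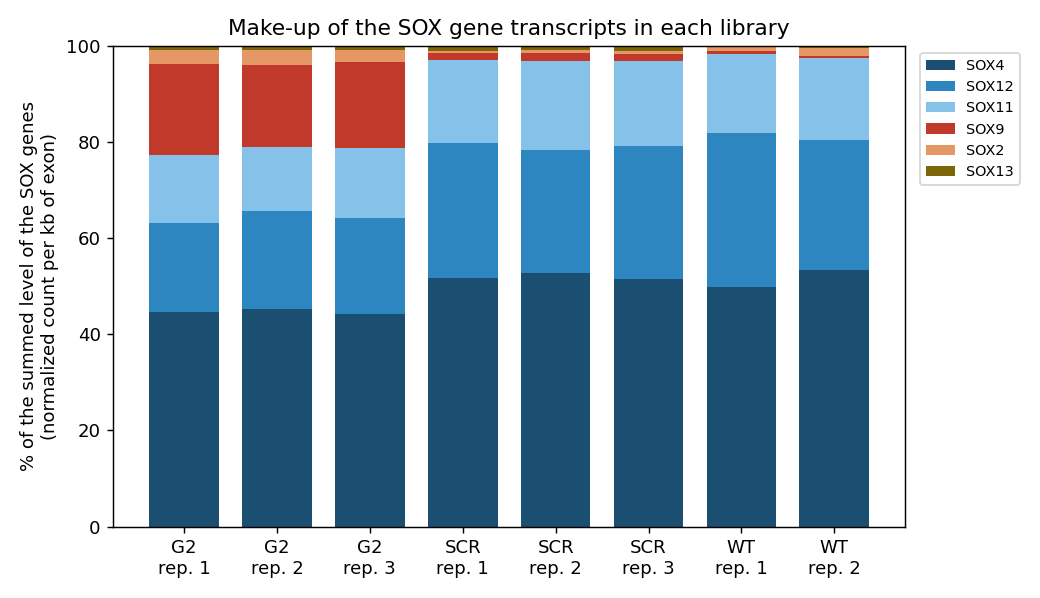
Share of each SOX gene in the summed level of the 10 genes (normalized count per kb of exon) in each of the 8 libraries. SOX5, SOX6, SOX8 and SOX10 together are too small to be seen and are not drawn. SOX9 takes 17.0% to 19.0% in the G2 libraries, 1.43% to 1.70% in SCR and 0.473% to 0.628% in WT.

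Of 9 other SOX genes, 5 were tested, and 2 were called against SCR and 3 against WT, all of them higher in G2, where 26.9% and 29.9% of all genes were called. SOX14, a SoxB2 factor of interneurons, was at 779 ± 12.6 normalized counts in G2, 245 ± 69.6 in SCR and 102 ± 10.5 in WT (log2 fold changes 1.70 and 2.93, limma adjusted p = 4.63e-06 and 1.07e-07). SOX18, a SoxF factor of endothelium, was at 55.3 ± 23.1, 27.1 ± 13.8 and 16.4 ± 2.10 and was called in both, but its limma adjusted p was 0.0837 in G2/SCR and the call there was lost without G2 replicate 1 (log2 fold change 0.93), G2 replicate 3 (0.81) or SCR replicate 2 (0.55) and with all libraries scaled to the same total (0.98) or no filter on low values (1.06). In G2/WT the call of SOX18 was lost without WT replicate 1 (1.48). SOX15 was at 19.3 ± 6.23 in G2, 14.0 ± 4.50 in SCR and at the floor in WT. It was called in G2/WT (limma adjusted p = 0.0295), though not without WT replicate 2 (log2 fold change 1.21). SOX7 (log2 fold changes -0.01 against SCR and -0.13 against WT) and SOX30 (-0.56 and -0.29) were not called, and the sign of each depended on the libraries kept. SOX1, SOX3 and SOX17 were at the floor in all lines. SOX21, a SoxB2 gene that counteracts SoxB1 factors, was at 10.3 to 22.6 normalized counts in G2 and at 0 in all 5 control libraries, at least 2.24-fold and 1.82-fold higher.

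Among noncoding genes at SOX loci, NBAT1 and CASC15 lie near SOX4 and are known as NB susceptibility transcripts. NBAT1 was at 85.2 ± 6.81 normalized counts in G2 and 158 ± 6.36 in SCR (log2 fold change -0.88, limma adjusted p = 0.00153) and at 111 ± 33.9 in WT, where it was not called (-0.35). Without WT replicate 2 it was called there as well (-0.66). CASC15 was at 535 ± 37.5, 527 ± 12.0 and 423 ± 50.4 and was called in neither comparison (0.02 and 0.34). Of the 9 noncoding genes listed, 3 passed the filter, the third being SOX9-AS1.

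Genes known to act downstream of or beside these factors were taken from lists written by hand with earlier results of these data known, and are read against 26.9% called and a median log2 fold change of -0.01 over all genes in G2/SCR, and 29.9% and 0.005 in G2/WT. Of the SOX9 cartilage targets, 4 of 12 tested were called in G2/SCR, all higher, and 7 of 12 in G2/WT, 6 higher and 1 lower, with medians of 0.77 and 0.91, which were 0.53 and 0.41 over genes with a mean of at least 100. COMP, a cartilage matrix protein, rose from 11.9 ± 3.01 in SCR and 25.2 ± 4.75 in WT to 69.0 ± 11.7 in G2 (log2 fold changes 2.46 and 1.42, limma adjusted p = 5.73e-05 and 0.00619). MATN3, a matrilin, was at 430 ± 20.3 in G2, 180 ± 3.18 in SCR and 242 ± 40.5 in WT (1.25 and 0.83). CILP2 was at 227 ± 25.4, 97.2 ± 16.02 and 40.2 ± 7.71 (1.22 and 2.47). CILP2 had the order of lines of SOX9, G2, SCR and WT, whereas the means of COMP and MATN3 were higher in WT than in SCR. Few orders are possible with so few lines, and such matches were not tested. Aggrecan (ACAN), a cartilage gene, was at the floor in all lines, as were CNMD, MATN4, UCMA and RUNX2. COL2A1, a cartilage collagen gene of this list, averaged 34.5 normalized counts over the 8 libraries. It was 10.8-fold higher in G2 and 7.07-fold higher in SCR than in WT, and was called in both comparisons. In G2/SCR it was 1.53-fold higher and was not called.

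Of the SOX2 partners and targets, 8 of 10 tested were called in G2/SCR, 7 higher and 1 lower, and 8 of 10 in G2/WT, 6 higher and 2 lower, with medians of 1.13 and 1.02, which were 0.46 and 0.61 with no filter on low values and 0.77 and 0.70 with a mean of at least 100. POU3F3, a POU factor of neural progenitors, was at 6259 ± 354 normalized counts in G2, 710 ± 9.32 in SCR and 1418 ± 94.6 in WT (log2 fold changes 3.14 and 2.14, limma adjusted p = 1.36e-11 and 5.31e-10). Its order of lines, G2, WT and SCR, was that of SOX2, but few orders are possible with 3 lines and the match was not tested. CDH2, encoding N-cadherin, was at 49968 ± 1106, 13521 ± 582 and 11340 ± 408 (1.89 and 2.14), and PROM1, encoding the stem cell antigen CD133, at 738 ± 81.1, 104 ± 6.36 and 120 ± 23.3 (2.81 and 2.62). Unlike SOX2, CDH2 was higher in SCR than in WT. POU3F2, another POU factor of this list, was called lower in both G2 comparisons (-1.01 and -0.97). LIN28B was called lower in G2/WT (-0.98). POU5F1, LIN28A, FGF4 and UTF1, which mark pluripotent cells, and PAX6, HES5 and FABP7 were at the floor in all lines. NANOG, another such marker, was at the floor in WT only, and its mean of 5.40 normalized counts was too low for testing.

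Of the SoxC neuronal targets, 7 of 14 tested were called in G2/SCR, 2 higher and 5 lower, and 5 of 14 in G2/WT, 2 higher and 3 lower, with medians of -0.38 and -0.46. The RNA-binding protein gene ELAVL4 was at 4799 ± 70.0 normalized counts in G2, 10954 ± 472 in SCR and 6516 ± 611 in WT and was called lower in G2/SCR only (log2 fold changes -1.19 and -0.44). Against the median of the list, GAP43, a growth cone protein, was 32544 ± 601 in G2 and 4300 ± 255 and 4791 ± 462 in the controls (2.92 and 2.77). TEAD2, which SoxC proteins are known to activate, was at 6735 ± 182, 2679 ± 88.5 and 4409 ± 120 (1.33 and 0.61) and fell just under the fold threshold in G2/WT without WT replicate 2 (0.58). GAP43 and TEAD2 were the 2 genes of this list with a positive log2 fold change in G2/SCR, and 3 of 14 were positive in G2/WT.

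Of the SOX10 and neural crest genes, 8 of 12 tested were called in each G2 comparison, 6 higher and 2 lower, with medians of 0.87 against SCR and 1.37 against WT, the latter 1.08 with genes at the floor set to their bounds. Over the genes of this list with a mean of at least 100, the medians were 0.11 and 0.03, and with no filter on low values 0.44 and 0.92. ETS1, a crest and endothelial factor, was at 746 ± 70.1 normalized counts in G2, 244 ± 28.8 in SCR and 246 ± 42.4 in WT (log2 fold changes 1.61 and 1.603). SNAI2, a factor of epithelial-mesenchymal transition, was at 549 ± 22.03, 221 ± 21.4 and 194 ± 21.0 (1.31 and 1.501). TFAP2B, a sympathetic crest factor, was lower at 4920 ± 118 in G2 against 10675 ± 270 and 7725 ± 211 (-1.12 and -0.65), and was not called in G2/WT with all libraries scaled to the same total (-0.46). The defining glial and crest genes CDH19, FOXD3, MIA, PAX3 and POU3F1 were at the floor in all lines, as was SOX10 itself.

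**Figure D5:**
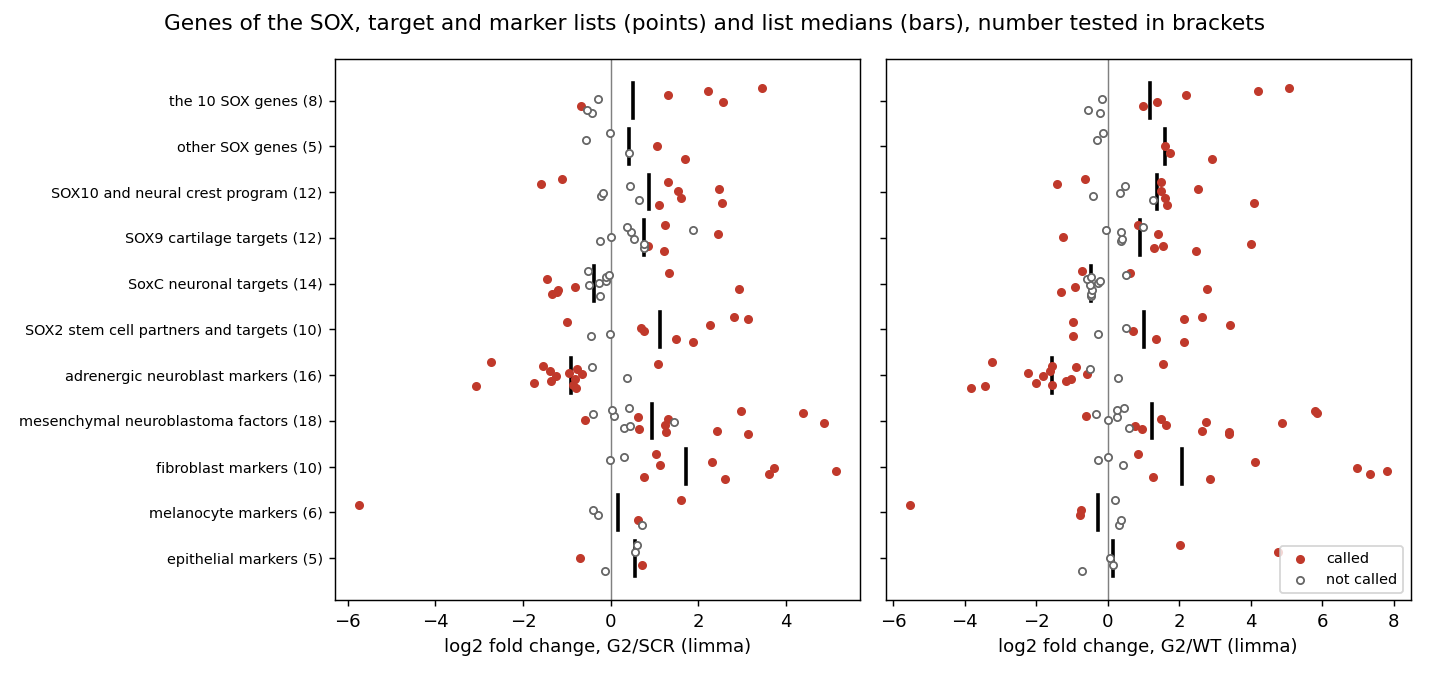
Log2 fold change of the tested genes of each list in G2/SCR (left) and G2/WT (right), with medians of the fitted values as black bars and called genes in red. The medians of the adrenergic markers (-0.91 and -1.57) and of the SoxC neuronal targets (-0.38 and -0.46) are below 0 in both panels, and those of the fibroblast markers (1.72 and 2.06) are the highest.

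The lists of cell type markers did not all move in the same direction, and their relation to the SOX genes was not tested. The 16 adrenergic markers, which define the neuroblast identity of SH-SY5Y, were all tested, and 13 were called lower and 1 higher in each G2 comparison (medians -0.91 and -1.57, or -0.84 and -1.37 with TH set to its bound). Their summed level was 130974 to 142069 normalized counts in G2, 251247 to 267406 in SCR and 285701 to 300710 in WT. CHGA, a granule protein, was at 3101 ± 254 in G2 against 26130 ± 1788 and 33445 ± 3041 (log2 fold changes -3.08 and -3.43), DBH, a noradrenaline synthesis enzyme, at 15234 ± 349 against 50905 ± 1719 and 61145 ± 2715 (-1.74 and -2.00), and SLC6A2, the noradrenaline transporter, at 7173 ± 192 against 21009 ± 738 and 21386 ± 1533 (-1.55 and -1.57). TH, whose enzyme starts catecholamine synthesis, was low throughout, at the floor in G2 and at 5.63 to 26.5 in the controls.

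Of the 18 mesenchymal NB factors, 10 were called higher and 1 lower in G2/SCR and 11 higher and 1 lower in G2/WT (medians 0.94 and 1.24, the latter 0.87 with the 3 genes at the floor in WT set to their bounds, and 0.54 and 0.67 over genes with a mean of at least 100). YAP1, a Hippo pathway coactivator, was at 1721 ± 127 normalized counts in G2, 220 ± 26.5 in SCR and 30.7 ± 9.996 in WT (log2 fold changes 2.97 and 5.80), and FOSL2, an AP-1 subunit, at 1877 ± 80.6, 349 ± 8.28 and 303 ± 27.5 (2.42 and 2.63). SNAI2 is on this list too. The summed level of this list, 36888 to 38131 in G2, overlapped that in SCR, 37165 to 38767. TWIST1, with a mean of 24988.5 over all libraries, made up much of this sum, which is not corrected for length. It was called in neither G2 comparison (-0.39 and -0.34), so the sum says little about the other genes. The order G2, SCR, WT of YAP1 was that of SOX9, a match that was not tested.

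Of 10 fibroblast markers, 8 were higher in G2 than in SCR and 7 higher than in WT by the call rule, none lower, and their summed level was 147982 to 150484 normalized counts in G2, 36083 to 37187 in SCR and 38400 to 41889 in WT. DCN, encoding decorin, was at 37183 ± 812 in G2, 1051 ± 86.9 in SCR and 166 ± 17.6 in WT, COL3A1 at 40955 ± 743, 3348 ± 91.8 and 253 ± 6.94, and COL1A1 at 3414 ± 301, 561 ± 35.8 and 468 ± 27.8. FAP was at the floor in WT. Their part in the values of SOX9 and the other SOX genes was not tested. Of 6 melanocyte markers tested, 2 were called higher and 1 lower in G2/SCR and 3 lower in G2/WT, with a summed level of 980.0 to 1150 in G2, 887 to 954 in SCR and 1120 to 1173 in WT, and TYR and MLANA were at the floor in all lines. SLC45A2 was at 0 in G2, at least 5.88-fold and 5.01-fold below SCR and WT, MC1R at 685 ± 63.1, 447 ± 58.6 and 532 ± 18.4, and TYRP1 at 34.6 ± 15.7, 11.3 ± 5.97 and 28.7 ± 6.86. Of 5 epithelial markers tested, 1 was called higher and 1 lower in G2/SCR and 2 higher in G2/WT. This was 40% in each, where 26.9% and 29.9% of all genes were called. The summed level of the epithelial markers stayed low, at 289.8 to 422.3 in G2, 261.5 to 300.04 in SCR and 256.2 to 296.8 in WT. CLDN4 was at 163 ± 61.3, 96.3 ± 28.02 and 140 ± 2.50, EPCAM at 41.9 ± 9.45, 68.2 ± 10.9 and 40.8 ± 13.9, and KRT19 at 40.1 ± 3.84, 26.0 ± 4.15 and 10.4 ± 7.72. In G2/SCR the call of MC1R was lost without G2 replicate 1 (log2 fold change 0.55) or SCR replicate 1 (0.51) and with all libraries scaled to the same total (0.53). That of CLDN4 was lost without G2 replicate 3 (0.45), SCR replicate 2 (0.62) or SCR replicate 3 (0.59), and that of EPCAM without G2 replicate 1 (-0.58), G2 replicate 2 (-0.65), SCR replicate 1 (-0.67) or SCR replicate 3 (-0.60).

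The genes most like SOX9 over the 8 libraries, among 12587 with a mean of at least 100, were S100A11, a calcium-binding protein gene, F2R, encoding a thrombin receptor, and SERPINF1, encoding the secreted factor PEDF, each with Pearson's r of 0.999 on the log2 scale. As many as 792 genes had r above 0.95 with SOX9, since libraries of a line share their level and there are only 3 lines. For SOX2 the closest were ARSB (r = 0.995), SLC7A11 (0.994) and PALS2 (0.992), with 291 genes above 0.95. For SOX6 they were RCBTB1 (0.995), TRPC1 (0.992) and WSB1 (0.990), with 304. These are descriptions over 8 libraries of 3 lines and carry no test.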

How the data were processed

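RNA-seq of polyadenylated RNA (Illumina Stranded mRNA Prep, paired reads of 75 bases) was made from 8 SH-SY5Y libraries, grouped by their labels into G2, SCR and WT. STAR mapping to hg38, gene counting by featureCounts (Subread 1.5.0, per the submitters' processing notes) against FAST DB genes, and DESeq2 normalization were done by the authors. The strand setting and the handling of multiply mapped reads are not given in the sources used here. The deposited signal is the DESeq2-normalized count of each gene in each library, with no scaling to length. Values are whole multiples of a step per library (100% within 0.01), so counts were recovered, except that the step of WT replicate 2 was too near 1 to be checked. Count models were therefore used for G2/SCR only.

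The main test was limma 3.58.1 in R 4.3.3 on log2(normalized count + 1) over 18947 genes (mean of 10 or more), in 1 fit with a mean per line, so fold changes of low genes are understated. P-values were adjusted by Benjamini-Hochberg over all genes tested. Folds without a log scale are ratios of mean normalized counts. The test was tried on simulated data first. Alternatives were other pseudocounts, filters, scalings and thresholds, replicate blocks, each library left out, only the compared lines, and edgeR 4.0.16 and DESeq2 1.42.0 on recovered counts. Genes named are the SOX genes, PRPF40B, the tested genes of the 2 lists at SOX loci, from every other list the 3 genes whose p in G2/SCR was smallest, and the 3 most correlated with SOX9, SOX2 and SOX6. Genes at the floor were named beside them, as were COL2A1, POU3F2, LIN28B and TWIST1. The SOX genes, lists and tests were chosen with earlier results of these data known. Same-numbered G2 and SCR libraries did not deviate together (r = -0.126, 0.046 and 0.147 over 13065 genes), so the numbers were not used as pairs. Coordinates are those of the deposited table, and exon lengths are from GENCODE 44. Promoter sequences are from RefSeq (GRCh38.p14), printed for the 250 bases before the start.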

Additional observations from a re-analysis of the deposited data

How the results depend on the processing

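Of 490 values of the SOX genes under alternatives, 467 kept their direction and side of the threshold, 11 gained a call, 7 lost it and 5 reversed. Some alternatives could not move a fold change, such as leaving out a WT library for G2/SCR or changing only the threshold, so these counts overstate the stability. With a mean of at least 100, G2/SCR and G2/WT each had 3 SOX genes called, since SOX5 and SOX6 were not tested, and 0 were specific to G2. With an adjusted p of at most 0.05, 0 were specific to G2. With that p and no fold threshold, chosen after seeing the data, 8 were called in G2/WT and 2, SOX4 and SOX12, were specific to G2. Leaving out 1 library gave 4 to 5 called in G2/SCR, 5 to 6 in G2/WT, 4 in SCR/WT and 0 to 1 specific to G2. PRPF40B missed a fold change of at least 2 in G2/SCR (-0.95). With edgeR and DESeq2 on recovered counts, 5093 and 4973 genes were called in G2/SCR, against 5088 with limma. These counts exceed the number of fragments, and models on fragments were not run.

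With all libraries scaled to the same total, 4519 of 5965 calls in G2/WT were higher against 3353 of 5657, and 3972 of 4381 in SCR/WT against 2031 of 3097. The values that reversed then were SOX4 in G2/WT (0.014), SOX12 (0.26) and PRPF40B (0.16) in SCR/WT, SOX7 in G2/WT (0.060) and CASC15 in G2/SCR (-0.070), and with TMM factors SOX12 in SCR/WT (0.0013). Leaving out 1 library reversed SOX12 in SCR/WT (-0.13 to 0.11), PRPF40B in SCR/WT (-0.23 to 0.0069), SOX30 in G2/SCR (-1.32 to 0.25) and G2/WT (-1.05 to 0.51), SOX7 in G2/SCR (-0.063 to 0.036) and G2/WT (-0.25 to 0.00089), CASC15 in G2/SCR (-0.037 to 0.053), and TYRP1 (-0.14 to 0.43), CLDN4 (-0.12 to 0.43) and EPCAM (-0.29 to 0.40) in G2/WT. The cause was not tested.

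The replicate block called 5, 5 and 4 SOX genes in G2/SCR, G2/WT and SCR/WT, and 5059, 5644 and 3057 of all genes, and reversed EPCAM in G2/WT (-0.080). A replicate block on the library-name number called 5, 6 and 4 SOX genes and reversed SOX30 (0.20), TYRP1 (-0.16), CLDN4 (-0.20) and EPCAM (-0.13) in G2/WT and SOX7 in G2/SCR (0.031). Under it the calls of SOX18 in G2/SCR (0.85) and G2/WT (1.11), SOX15 in G2/WT (1.13) and EPCAM in G2/SCR (-0.56) were lost. Libraries held few counts of SOX5, SOX6 in WT, SOX8, SOX10 and SOX21, where differences below the floor were not detectable.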
